A study of Mus musculus with 13 samples.

Results

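The integrated stress response core described here is a set of 10 genes: the transcription factors Atf4, Atf5, Ddit3 (which encodes CHOP) and Cebpb, and the effectors Trib3, Chac1, Asns, Ddit4, Ppp1r15a and Nupr1. They were chosen by name for their place in the pathway, with earlier results of these data known but by no threshold on a measured value, and each was found as a row of the raw count table, which holds 32544 gene symbols. Of these, 12496 had enough counts to be tested, among them 7 of the 10 genes.

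The integrated stress response begins when a stress-sensing kinase phosphorylates the translation initiation factor eIF2, which slows protein synthesis as a whole while the message for ATF4 is translated more. ATF4 then switches on genes for amino acid supply, redox defence and its own restraint, and with CHOP it can turn a lasting stress towards cell death. In the lung the pathway is known to act in the epithelium and endothelium under oxidative, secretory and mitochondrial stress.

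Lungs came from wild-type (WT) C57BL/6J male mice bought at 7 weeks of age. The Normoxia group (7 libraries) breathed 21% oxygen and the Hyperoxia group (6 libraries) 80% oxygen, each for 5 days, and the question was which transcripts differ between them. Lungs were perfused with cold DPBS and frozen, and RNA of the whole tissue was made into Quant-seq libraries, which count reads near the 3′ end of each transcript. The labels do not say outright that each library is a separate mouse, so p-values measure the spread between these libraries, and in whole lung fewer cells of a type and less RNA per cell cannot be told apart.

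The libraries held 1607111 to 3387736 counts in Normoxia and 2029006 to 4540288 in Hyperoxia. Levels are given as CPM, counts per 1000000 counts of a library after trimmed-mean (TMM) scaling, and 3 counts, taken as the floor, corresponded to 0.656 to 1.84 CPM. The library labelled Hyperoxia 1 stood apart. Its log2 CPM correlated with those of the other libraries at 0.721 to 0.833, against at least 0.854 among the other 12 libraries, so the fits of the 10 genes and the counts of the lists are also given without it wherever it could be left out. Alveolar type 2 markers were abundant in every library, at a summed 15592 to 27017 CPM in Normoxia and 4760 to 8955 CPM in Hyperoxia, so the labelled tissue carried its defining markers.

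Before the values, the promoter stretches that carry the pathway's own DNA motif are shown. ATF4 with a C/EBP partner binds the C/EBP-ATF response element, whose core was searched as TGATGNAA on both strands of the RefSeq promoter windows, 250 bases before to 50 bases after each start (GRCm38.p6). All 10 genes had a window, and Atf5 had a pair of them, so 11 windows were read. The core was present for 4 of the 10 genes, Trib3, Chac1, Asns and Nupr1, and in 3.97% of the 32851 promoters in the table. In each line the letters run 5′ to 3′ along the gene's own strand and capitals mark the core, which for Trib3, Chac1 and Nupr1 lies on the opposite strand and so reads as its reverse complement.
Trib3, chr2:152344028-152344057, minus strand: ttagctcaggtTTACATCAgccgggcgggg
Chac1, chr2:119351038-119351067, plus strand: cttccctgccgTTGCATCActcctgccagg
Asns, chr6:7693214-7693243, minus strand: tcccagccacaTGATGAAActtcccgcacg
Nupr1, chr7:126625562-126625591, minus strand: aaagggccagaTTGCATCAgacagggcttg

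The cores of Chac1 and Nupr1 had the same 8 letters. The core lay at bases -193 to -186 from the start in Chac1, -110 to -103 in Nupr1, -23 to -16 in Asns and 15 to 22 past the start in Trib3. The cyclic AMP response element TGACGTCA, which ATF and CREB family proteins bind, was found for 1 of the 10 genes, Ppp1r15a, and in 1.79% of all promoters. It lay at bases -12 to -5, in capitals here.
Ppp1r15a, chr7:45526262-45526291, minus strand: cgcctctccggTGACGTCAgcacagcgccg

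The hypoxia response element core ACGTG was found for 5 of the 10 genes (Ddit3, Asns, Ddit4, Ppp1r15a and Nupr1) and in 19.6% of all promoters. The endoplasmic reticulum stress element, which ATF6 binds, was found for 0 of the 10 genes and in 0.119% of all promoters. The windows of Atf4, Atf5 and Cebpb held a match to none of these 4 motifs. A match describes letters in a short window and is not evidence of binding.

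**Figure D1:**
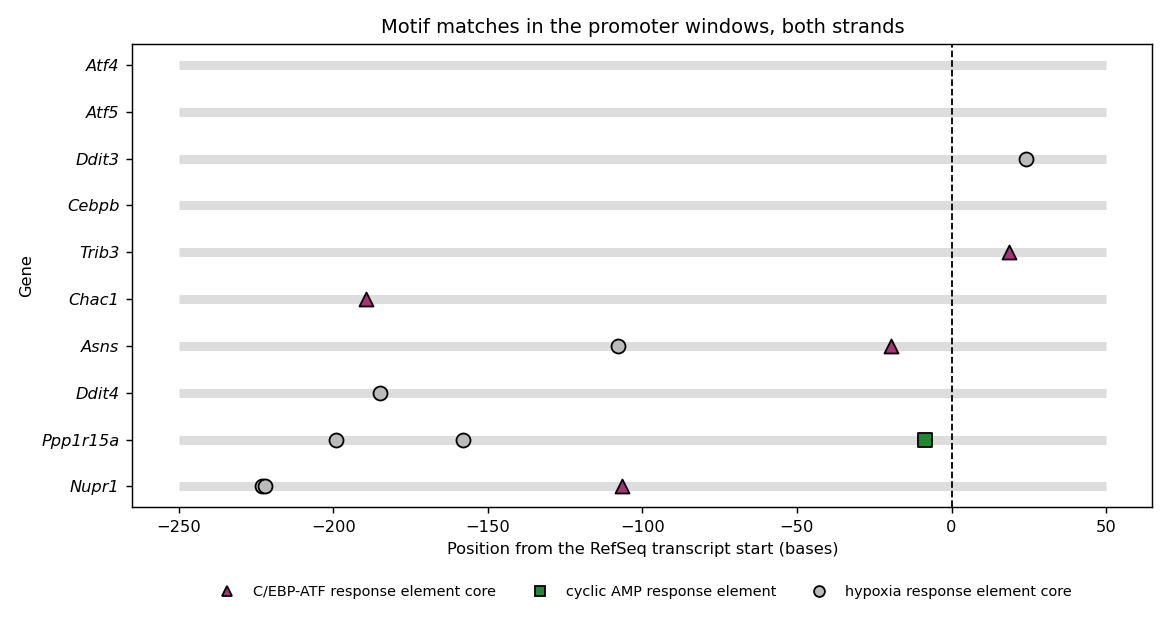
Motif matches in the promoter window of each gene. The horizontal axis is the distance in bases from the RefSeq transcript start (dashed line), grey bars span the 250 bases before to 50 bases after it, and symbols mark matches on either strand; triangles, the C/EBP-ATF core, stand in Trib3, Chac1, Asns and Nupr1, and the square, the cyclic AMP response element, in Ppp1r15a.

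Across the 10 genes, hyperoxic lung held more of the transcripts for ATF4, CHOP and most of their effectors, while the level of the partner factor Cebpb was not called different. With the quasi-likelihood test of edgeR and Benjamini-Hochberg adjustment over all genes tested, 6 of the 7 tested genes were higher at an adjusted p under 0.05, where 11.8% of all genes tested were called higher. None of the 7 was called lower, by edgeR, by DESeq2 or at an unadjusted p under 0.05 in edgeR, where 10.8% of all genes tested were called lower. The called genes were Atf4, Ddit3, Trib3, Asns, Ppp1r15a and Nupr1.

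Trib3 passed the filter on low counts through its hyperoxic libraries. Before TMM scaling, 5 of these exceeded the cutoff of 3.36 CPM against 2 of the 7 normoxic ones, so the count over tested genes carries this selection. In a fit with no filter, which covers all 10 genes, 7 were higher, with Chac1 added, where 7.34% of the 19718 genes fitted were called higher. The median log2 fold change of the 10 genes in that fit was 1.51, and that of all genes fitted was -0.05. Adding the study's threshold of a log2 fold change over 1.5 left 4 of the 7 (Atf4, Trib3, Asns and Nupr1), where 1.55% of all genes tested passed.

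Without Hyperoxia 1, 8 of the 10 genes could be fitted and 7 were higher, where 15.2% of the 12752 genes fitted were called higher. The gene added was Chac1, which, like Trib3, passed the filter through its hyperoxic libraries. Again before TMM scaling, 4 of the 6 exceeded the cutoff over all libraries against 1 of the 7 normoxic ones, so the count of 7 carries the same selection. Every hyperoxic library lay above every normoxic one for 2 of the 7 tested genes, Atf4 and Ddit3, a pattern that 5.6% of all genes tested showed. With Hyperoxia 1 set aside this count was 5 of 7, where it was 8.31% of all genes tested. Ppp1r15a and Cebpb were the genes that still overlapped.

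**Figure D2:**
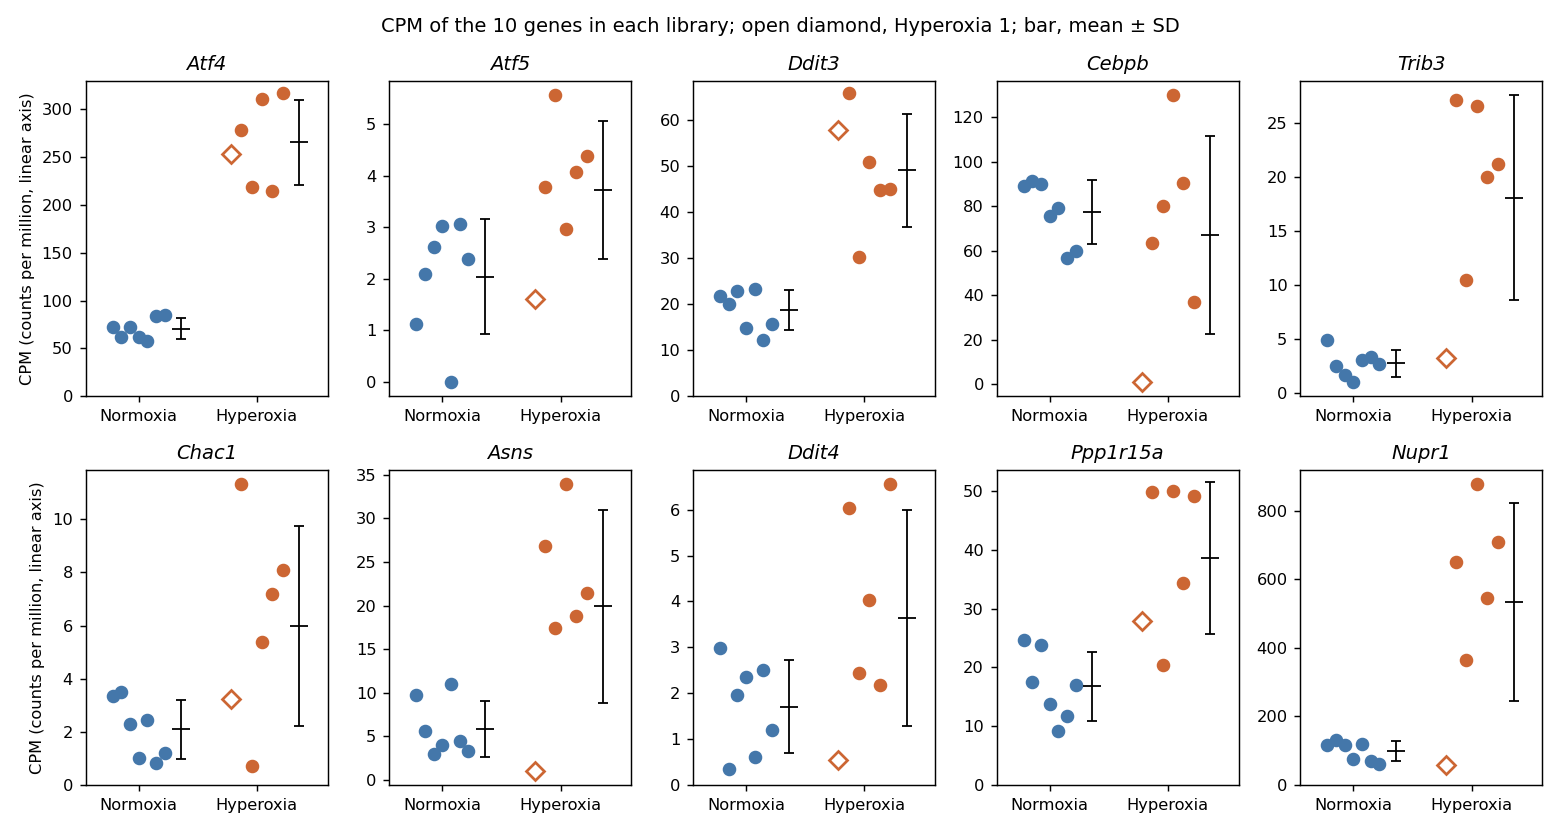
CPM of each gene (linear axis, its own range in each panel) in the 7 normoxic (blue) and 6 hyperoxic (orange) libraries; each point is a library, the open diamond is Hyperoxia 1, and the bar beside each group is the mean ± SD. Atf4 and Ddit3 separate the groups completely, whereas Hyperoxia 1 sits below every normoxic point for Asns, Cebpb and Nupr1.

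Atf4 encodes the transcription factor at the centre of the pathway (chromosome 15, 80255184 to 80257541, plus strand, GRCm38, protein-coding). Its level was 57.6 CPM in the lowest, 72.3 in the median and 85.3 in the highest normoxic library. The hyperoxic libraries ran from 214 CPM through a median of 266 to 317 CPM. The groups were far apart, the lowest hyperoxic library holding more than the highest normoxic one by a wide margin, and Hyperoxia 1, at 254 CPM, lay among the others. The normoxic mean of 70.7 ± 11.1 CPM (SD, n = 7) compared with a hyperoxic mean of 265 ± 44.2 CPM (SD, n = 6). The fitted log2 fold change was 1.91 (SE 0.15, a ratio of 3.75), with an edgeR adjusted p of 4.26e-07. Without Hyperoxia 1 it was 1.93 (SE 0.14, adjusted p = 9.93e-08), and leaving out any single library kept it between 1.87 and 1.98 and called in each of the 13 fits. These are transcript levels, and the translation of ATF4, through which the pathway chiefly raises the protein, was not measured.

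Ddit3 encodes CHOP, a C/EBP family factor induced by ATF4 and linked to cell death under lasting stress (chromosome 10, 127290774 to 127296288, plus strand). Its normoxic libraries ran from 12.3 CPM through a median of 19.9 to 23.3 CPM. The hyperoxic libraries ran from 30.2 CPM through a median of 48.0 to 65.8 CPM. Again the groups did not overlap, and Hyperoxia 1, at 57.9 CPM, was among the highest. The normoxic mean of 18.7 ± 4.36 CPM (SD, n = 7) compared with a hyperoxic mean of 49.1 ± 12.2 CPM (SD, n = 6), with a log2 fold change of 1.40 (SE 0.20, edgeR adjusted p = 1.81e-04). Without Hyperoxia 1 the log2 fold change was 1.37 (SE 0.20, adjusted p = 9.97e-05). Mars, the methionyl-tRNA synthetase gene, overlaps Ddit3 on the opposite strand and was also higher, by 1.05 on the log2 scale. Whether strand was used in counting is not given in the sources used here, so the counts of this pair are uncertain.

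Atf5 encodes a factor related to ATF4 that responds to mitochondrial and proteotoxic stress (chromosome 7, 44812256 to 44816658, minus strand). It was counted at 0 to 11 reads in a normoxic library and 3 to 20 in a hyperoxic one, and did not pass the filter. In Normoxia it was 0 CPM at the lowest, 2.38 at the median and 3.07 at the highest. The library at 0, Normoxia 5, is the shallowest, and 3 counts there would be 1.84 CPM. In Hyperoxia it was 1.61 CPM at the lowest, in Hyperoxia 1, 3.92 at the median and 5.56 at the highest. Of the 6 hyperoxic libraries, 4 lay above every normoxic one and the rest overlapped. In the fit with no filter the log2 fold change was 0.84 (SE 0.44, edgeR adjusted p = 0.233), which did not pass the test. Nup62 and Il4i1 overlap Atf5 on the opposite strand.

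Cebpb encodes C/EBPβ, a basic leucine zipper factor that pairs with ATF4 and CHOP and also serves inflammatory and glucocorticoid responses (chromosome 2, 167688915 to 167690418, plus strand). Its normoxic libraries held 56.6 CPM at the lowest, 79.0 at the median and 91.2 at the highest. The hyperoxic libraries held 1.07 CPM at the lowest, 71.7 at the median and 130 at the highest. The lowest value was that of Hyperoxia 1, where 2 reads were counted, and the next hyperoxic library stood at 37.0 CPM. The spread in Hyperoxia exceeded that in Normoxia and the groups overlapped, with 3 of the 6 hyperoxic libraries above the normoxic median. The normoxic mean of 77.4 ± 14.4 CPM (SD, n = 7) compared with a hyperoxic mean of 66.9 ± 44.5 CPM (SD, n = 6). The log2 fold change was -0.20 (SE 0.48, edgeR adjusted p = 0.807). Without Hyperoxia 1 it was 0.07 (SE 0.24, adjusted p = 0.852 by the same test), so neither fit called a difference and the sign turned on that library. Of the 31-base words in the last 500 bases of its transcript, 1.28% also occur in other genes, whereas the other 9 genes shared none.

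Asns encodes asparagine synthetase, a textbook target of ATF4 in amino acid shortage (chromosome 6, 7675169 to 7693254, minus strand), and its promoter window holds the core printed above. The normoxic libraries ran from 2.94 CPM through a median of 4.46 to 11.03 CPM. The hyperoxic libraries ran from 1.07 CPM through a median of 20.1 to 33.9 CPM. The lowest value was again that of Hyperoxia 1, with 2 reads, below the lowest normoxic library. The other 5 hyperoxic libraries, from 17.4 CPM upwards, were above every normoxic one. The log2 fold change was 1.82 (SE 0.48, edgeR adjusted p = 0.0116), and without Hyperoxia 1 it was 2.08 (SE 0.31, adjusted p = 1.10e-04). The call was lost with limma-voom (1.72, adjusted p = 0.0709) and when the deposited log CPM values were tested by limma (1.28, adjusted p = 0.106).

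Chac1 encodes a glutathione-degrading enzyme induced by ATF4 and CHOP (chromosome 2, 119351229 to 119354381, plus strand). It was counted at 3 to 10 reads in a normoxic library and 2 to 37 in a hyperoxic one, and did not pass the filter. Normoxia gave 0.836 CPM at the lowest, 2.29 at the median and 3.49 at the highest. Hyperoxia gave 0.695 CPM at the lowest, 6.29 at the median and 11.3 at the highest. The lowest hyperoxic value was that of Hyperoxia 3, Hyperoxia 1 was within the normoxic range, and the other 4 hyperoxic libraries lay above every normoxic one. In the fit with no filter the log2 fold change was 1.58 (SE 0.49, edgeR adjusted p = 0.0375). Without Hyperoxia 1 the gene passed the filter, with a log2 fold change of 1.68 (SE 0.49, adjusted p = 0.0165). It passed in 6 of the 13 fits that left out a library and was called in 4 of these, the calls being lost without Normoxia 4 (1.45, adjusted p = 0.0596) and without Hyperoxia 2 (1.31, adjusted p = 0.0726).

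Trib3 encodes a pseudokinase that ATF4 and CHOP induce and that restrains them in turn (chromosome 2, 152337422 to 152344032, minus strand). Normoxic libraries ran from 1.01 CPM through a median of 2.68 to 4.85 CPM. Hyperoxic libraries ran from 3.22 CPM through a median of 20.6 to 27.2 CPM. Hyperoxia 1, with 6 reads, was the hyperoxic library that stayed within the normoxic range, and the other 5 began at 10.4 CPM. The normoxic mean of 2.72 ± 1.24 CPM (SD, n = 7) compared with a hyperoxic mean of 18.1 ± 9.49 CPM (SD, n = 6). The log2 fold change was 2.75 (SE 0.43, edgeR adjusted p = 2.88e-04), and 2.97 (SE 0.32, adjusted p = 4.44e-06) without Hyperoxia 1. Among the 7 tested genes this was the largest log2 fold change in both fits.

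Ppp1r15a encodes GADD34, the stress-induced subunit that brings a phosphatase to eIF2 and so restores translation (chromosome 7, 45522916 to 45526268, minus strand). Normoxic libraries ran from 9.19 CPM through a median of 16.95 to 24.6 CPM. Hyperoxic libraries ran from 20.5 CPM through a median of 41.8 to 50.1 CPM. Here the library that overlapped Normoxia was Hyperoxia 3, while Hyperoxia 1, at 27.9 CPM, lay above every normoxic library. The normoxic mean of 16.8 ± 5.84 CPM (SD, n = 7) compared with a hyperoxic mean of 38.7 ± 12.9 CPM (SD, n = 6), with a log2 fold change of 1.20 (SE 0.26, edgeR adjusted p = 0.00388). Without Hyperoxia 1 the log2 fold change was 1.28 (adjusted p = 0.00119 by the same test). Tulp2 overlaps it on the opposite strand.

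Ddit4 encodes REDD1, an inhibitor of the growth kinase complex TORC1 that ATF4, glucocorticoids and hypoxia induce (chromosome 10, 59949669 to 59951834, minus strand). Its counts were low, at 1 to 9 reads in a normoxic library and 1 to 30 in a hyperoxic one, and it did not pass the filter. Normoxia gave 0.349 CPM at the lowest, 1.96 at the median and 2.99 at the highest. Hyperoxia gave 0.536 CPM at the lowest, in Hyperoxia 1, 3.24 at the median and 6.56 at the highest. Of the 6 hyperoxic libraries, 3 lay above every normoxic one. In the fit with no filter the log2 fold change was 1.10 (SE 0.50, edgeR adjusted p = 0.165), which did not pass the test.

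Nupr1 encodes a small chromatin-associated stress protein that acts with ATF4 and CHOP (chromosome 7, 126623249 to 126630861, minus strand). Normoxic libraries ran from 62.4 CPM through a median of 115 to 130 CPM. Hyperoxic libraries ran from 58.4 CPM through a median of 597 to 878 CPM. The lowest hyperoxic value, that of Hyperoxia 1, fell under the lowest normoxic one, and the other 5 began at 363 CPM. The normoxic mean of 98.4 ± 28.4 CPM (SD, n = 7) compared with a hyperoxic mean of 534 ± 289 CPM (SD, n = 6). The log2 fold change was 2.44 (SE 0.41, edgeR adjusted p = 5.56e-04), and 2.69 (SE 0.22, adjusted p = 3.70e-07) without Hyperoxia 1.

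**Figure D3:**
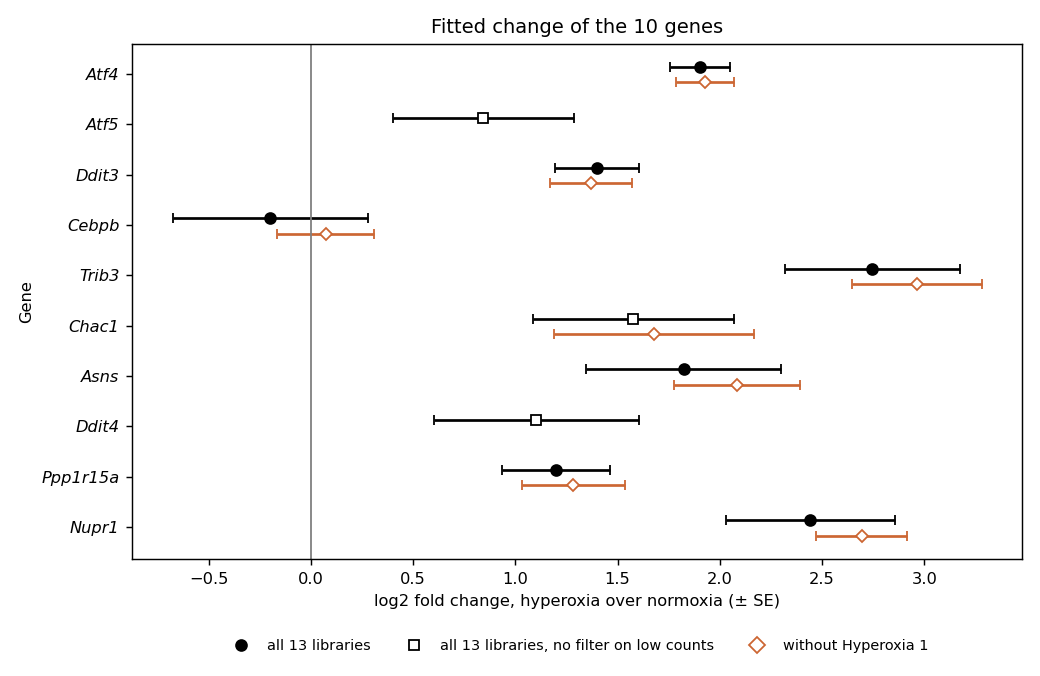
Fitted log2 fold change (hyperoxia over normoxia, horizontal axis) of each gene with its SE. Black points use all 13 libraries (open squares, the fit with no filter for the 3 genes that did not pass it) and orange diamonds leave out Hyperoxia 1; the change of Atf4 and Ddit3 hardly moves between fits, and that of Cebpb lies on both sides of 0.

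The genes of the set differed from each other in how Hyperoxia 1 departed from the rest of its group. In that library, the log2 CPM of Cebpb was lower than the mean of the other hyperoxic libraries by a difference of -5.42, that of Asns by -3.76, that of Nupr1 by -3.35 and that of Trib3 by -2.42. In the same library Atf4 differed from that mean by -0.06, Ddit3 by 0.33 and Ppp1r15a by -0.46. Thus 4 of the 7 tested genes were at least 2 log2 units lower there, as were 14% of all genes tested, over which the difference had a median of -0.14 and an SD of 1.43. Hyperoxia 1 therefore held hyperoxic levels of both central factors beside normoxic or lower levels of several effectors of this set. The other ATF4 target lists, given below, were mixed there. The summed aminoacyl-tRNA synthetase genes were 2176 CPM against 1310 to 1587 CPM in the other hyperoxic libraries (median log2 difference 0.46). The sums were 281 against 188 to 256 CPM for serine, one-carbon and proline synthesis (-0.02). They were 2538 against 1929 to 2305 CPM for other ATF4 and CHOP targets (0.28), and 790 against 934 to 1232 CPM for transporters (-0.33).

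In the same library, 6 of 12 glucocorticoid-induced genes were at least 2 log2 units lower than in the other hyperoxic libraries, with a summed 729 CPM against 1893 to 3914 CPM. The summed neutrophil markers were 48.3 CPM there against 91.9 to 251 CPM, the summed lymphocyte markers were 99.2 CPM against 36.5 to 59.7 CPM, the monocyte markers 441 CPM against 254 to 328 CPM (though 3 of the 9 tested markers were higher there and 4 at least 2 log2 units lower, with a median difference of -1.01), the endothelial markers 1284 CPM against 1522 to 4939 CPM, the alveolar type 1 markers 4540 CPM against 5039 to 6544 CPM, and the summed eIF2 kinase and machinery genes were 3710 CPM against 2173 to 2639 CPM. The part of these in the low effector levels was not tested.

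**Figure D4:**
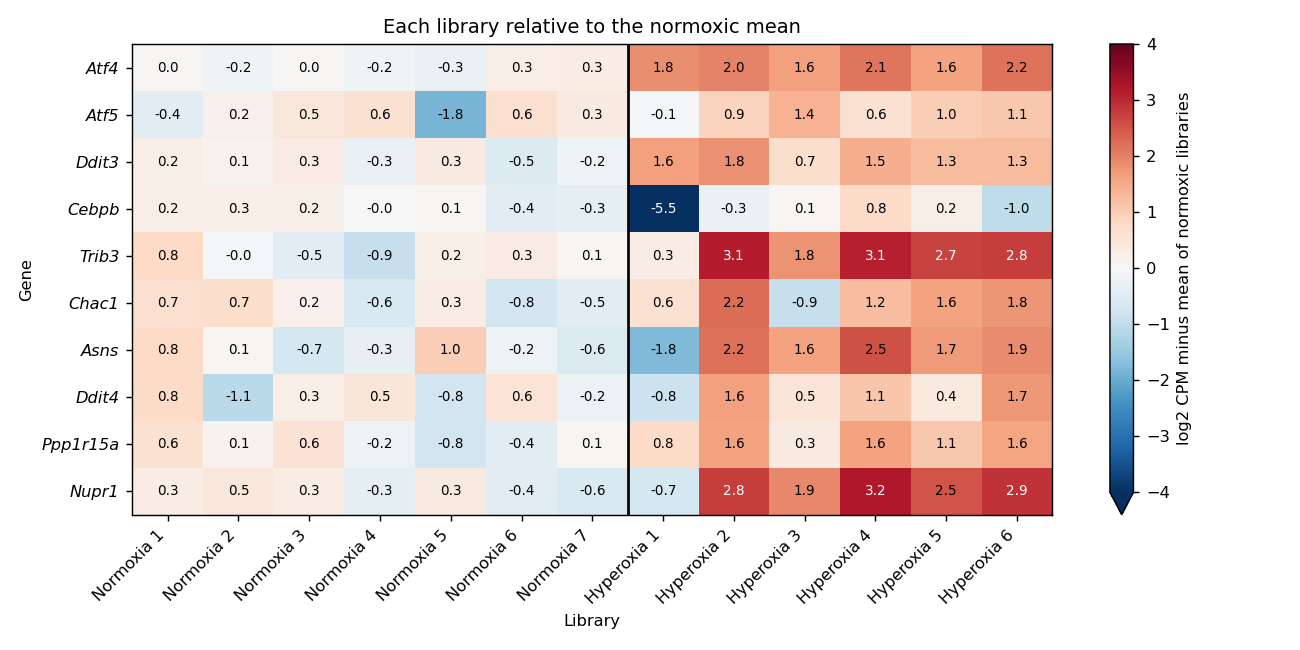
Log2 CPM of each gene (rows) in each of the 13 libraries (columns) minus the mean of the 7 normoxic libraries; red is above and blue below that mean, with the value written in each cell, and the colour scale ends at -4. The Hyperoxia 1 column is red for Atf4 and Ddit3, blue for Asns and Nupr1, which are red in the other 5 hyperoxic columns, and darkest blue for Cebpb.

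The library names fall into a pair of letter runs, B to M (5 normoxic and 3 hyperoxic libraries, Hyperoxia 1 included) and O to S (2 normoxic and 3 hyperoxic), and the labels do not say whether these mark a batch. The difference in mean log2 CPM between hyperoxic and normoxic libraries was 1.93 for Atf4 within B to M and 1.70 within O to S. That of Ddit3 was 1.24 and 1.70 in the same order. That of Atf5, at low counts, was 0.93 and 0.39. Both central factors were thus higher in hyperoxia within each run.

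The 6 effectors had smaller differences within B to M, at 1.82 against 2.66 for Trib3, 0.84 against 1.59 for Ppp1r15a, 1.13 against 3.39 for Nupr1, 0.52 against 2.45 for Asns, 0.39 against 2.16 for Chac1 and 0.50 against 0.92 for Ddit4. Without Hyperoxia 1 the B to M differences were 2.55 for Trib3, 0.91 for Ppp1r15a, 2.14 for Nupr1, 1.75 for Asns, 0.41 for Chac1 and 1.14 for Ddit4. The gap between the runs thus stayed nearly as wide for Chac1 and Ppp1r15a and changed sign for Ddit4. Cebpb differed by -2.04 within B to M, by -0.25 there without Hyperoxia 1, and by 0.38 within O to S. Fitted within B to M alone, edgeR called 3 of the genes higher (Atf4, Ddit3 and Trib3), where 5.34% of all genes fitted were called higher, and not Asns (adjusted p = 0.275), Ppp1r15a (0.156) or Nupr1 (0.0662). Within O to S alone, with fewer libraries, it called 7, with Chac1 in addition to the 6 named above, where 11% of all genes fitted were called higher. The 2 normoxic libraries of that run held 0.836 and 1.19 CPM of Chac1, under the cutoff. They held 3.34 and 2.68 CPM of Trib3, near or under it, so the count of 7 too carries the selection by the filter.

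Upstream of the set stand the kinases that phosphorylate eIF2, and none of the 4 passed the edgeR test over all libraries. The log2 fold change was 0.42 for Eif2ak1 (HRI, the heme- and mitochondria-responsive kinase; adjusted p = 0.0506), -0.18 for Eif2ak2 (PKR, the double-stranded RNA sensor; adjusted p = 0.566), -0.49 for Eif2ak3 (PERK, the endoplasmic reticulum sensor; adjusted p = 0.274) and -0.35 for Eif2ak4 (GCN2, the sensor of uncharged tRNA; adjusted p = 0.169), all by edgeR. Every hyperoxic library held more Eif2ak1 (94.2 CPM or above) than every normoxic one (89.6 CPM or below), and DESeq2 (0.46, adjusted p = 0.0352) and edgeR with the letter run as a term (0.46, adjusted p = 0.0293) called it higher, as did edgeR without Hyperoxia 3 (adjusted p = 0.0341) and without Hyperoxia 4 (0.0482). Without Hyperoxia 1, Eif2ak3 was called lower (-0.75, adjusted p = 0.0420), and within the O to S run alone so was Eif2ak2 (-0.85, adjusted p = 0.0116). Kinase activity does not follow from transcript level and was not measured.

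Ppp1r15b, the constitutive counterpart of Ppp1r15a, rose by 0.47 (adjusted p = 0.0233). Of the 18 eIF2 kinase and machinery genes, 6 were higher and 0 lower (11.8% and 10.8% of all genes tested), the median log2 fold change being 0.30 against -0.03 over all genes tested, and without Hyperoxia 1 these counts were 6 and 1 (15.2% and 13.3% of all genes fitted), the latter Eif2ak3. Eif2s1 (1.24) and Eif2s2 (1.40), which encode eIF2 subunits, and Eif2b2 (0.78) and Eif2b3 (0.99), which encode subunits of its exchange factor, were the leading genes, with edgeR adjusted p-values from 4.30e-05 to 0.00710.

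In the lists that follow, a value after a gene's name is its log2 fold change. The genes given with a value are the called ones with the smallest adjusted p, which ran from 1.09e-09 to 0.0335 in edgeR. In the amino acid arm of ATF4 targets, most tested genes were higher. In this arm, and among the eIF2, mitochondrial and glucocorticoid-induced genes, none was called lower over all 13 libraries by edgeR or DESeq2 or at an unadjusted p under 0.05. Of 11 tested genes for serine, one-carbon and proline synthesis, 7 were higher and 0 lower (11.8% and 10.8% of all genes tested), the median log2 fold change being 1.12, and the leading genes were Mthfd2 (3.16), Psat1 (2.76), Aldh1l2 (1.91) and Shmt2 (1.12). Of 8 tested amino acid transporters, 5 were higher and 0 lower on the same backgrounds, with a median of 0.85, led by Slc7a1 (1.45), Slc7a6 (1.32), Slc38a2 (1.05) and Slc3a2 (1.04). Of 12 aminoacyl-tRNA synthetase genes, 8 were higher and 0 lower, likewise, with a median of 1.00, led by Sars (1.70), Aars (1.21), Eprs (1.16) and Nars (1.00). Without Hyperoxia 1 the genes higher were 8, 5 and 9 for these lists in the same order, where 15.2% of all genes fitted were. In the first list Aldh1l2, Phgdh and Cth, all called, and Aldh18a1, not called, had a normoxic median under the 3.36 CPM cutoff and a hyperoxic one above it, so its counts and median carry the selection by the filter.

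Of 17 other tested targets of ATF4 and CHOP, 6 were higher and 2 lower (11.8% and 10.8% of all genes tested), the median log2 fold change being 0.41, and without Hyperoxia 1 these counts were 10 and 2 of 19 (15.2% and 13.3%). Sesn2, Stc2 and Dusp4, counted as higher, passed the filter through their hyperoxic libraries by the same reading of the medians. Atf3, a stress factor downstream of ATF4, rose by 2.34, Stc2 by 2.08, the autophagy receptor Sqstm1 by 1.25 and the translation repressor Eif4ebp1 by 0.81. The genes lower were Sesn3 (-0.95) and the proapoptotic Bcl2l11 (-0.51).

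Of 20 endoplasmic reticulum chaperone, ATF6 and IRE1 arm genes, 4 were higher and 2 lower, beside 11.8% and 10.8% of all genes tested, with a median of 0.03, and the counts were the same without Hyperoxia 1 (15.2% and 13.3%). Atf6 (0.69), Hspa5 (0.67), Sel1l (0.59) and Canx (0.46) were higher, and Hsp90b1 (-0.57) and Pdia6 (-0.43) lower. Of 11 mitochondrial chaperones and proteases, 3 were higher, Hspa9 (1.80), Hspd1 (1.14) and Clpp (0.89), with a median of 0.52 and the same backgrounds, and without Hyperoxia 1 the count was 8.

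Among 25 tested partners and relatives of the bZIP class, 6 were higher and 5 lower (11.8% and 10.8% of all genes tested), with a median of 0.13, and without Hyperoxia 1 these were 11 and 5 of 27 (15.2% and 13.3%). Beside Atf3, the genes higher were led by Fos (1.93), Cebpd (1.46) and Fosl2 (0.91), and the genes lower by Dbp (-2.46), Hlf (-0.86), Tef (-0.66) and Creb1 (-0.46). Cebpd, the close relative of Cebpb, was therefore called where Cebpb was not. It stood at 133 CPM in Hyperoxia 1, near its normoxic mean of 132 CPM.

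Other inputs to the same genes were read from lists that in part hold the same genes (Sesn2, for instance, is in 3), and their counts stand beside 11.8% higher and 10.8% lower over all genes tested. Of 16 tested p53 targets 12 were higher and 1, Sesn1 (-1.25), lower, with a median of 1.27, led by Cdkn1a (4.86), Aen (2.84), Ccng1 (2.22) and Zmat3 (1.43). Of 12 glucocorticoid-induced genes 6 were higher and 0 lower, with a median of 0.78, led by Mt2 (4.18), Mt1 (2.63), Fkbp5 (2.18) and Cdkn1c (0.90). Over all libraries, edgeR called Tsc22d3, Per1, Sgk1, Klf9, Dusp1 and Errfi1 in neither direction. Without Hyperoxia 1 the count higher was 9. Of 10 tested targets of hypoxia-inducible factors 1 was higher, the glucose transporter Slc2a1 (1.24), and 2 lower, P4ha1 (-0.62) and Pdk1 (-0.68), near those backgrounds. Of 11 tested TORC1 regulators 2 were higher, Sesn2 (2.49) and the Ddit4 relative Ddit4l (2.35), and 3 lower, Sesn1, Sesn3 and Txnip (-1.35). Without Hyperoxia 1, 13 of 17 p53 targets were higher and 1 lower, 2 of 12 TORC1 regulators higher and 4 lower, and the counts of hypoxia-inducible factor targets were the same, beside 15.2% and 13.3% of all genes fitted. Sesn2 and, among p53 targets, Eda2r had a normoxic median under the cutoff and a hyperoxic one above it, so these counts carry the selection by the filter.

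**Figure D5:**
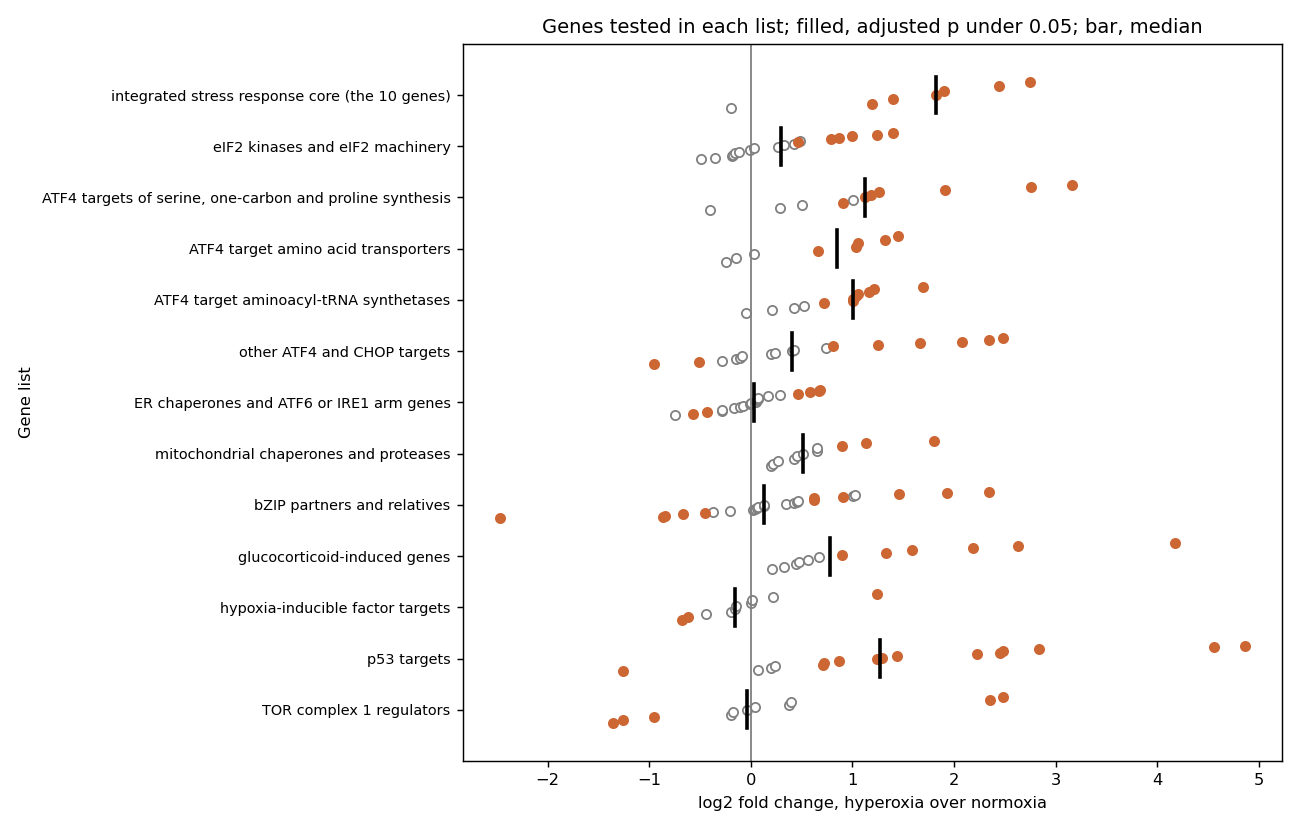
Log2 fold change (hyperoxia over normoxia, horizontal axis) of every tested gene in each list (rows); orange points had an edgeR adjusted p under 0.05, open points did not, and the black bar is the list's median. The medians of the 3 amino acid lists lie at 0.85 to 1.12 and that of the endoplasmic reticulum list at 0.03.

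The make-up of the lung RNA moved with oxygen as well. Of 10 alveolar type 2 markers 7 were lower and 0 higher (10.8% and 11.8% of all genes tested, as for each marker list), among them Lamp3 (-1.73), over the summed levels given above. Of 10 endothelial markers 6 were lower, from 3015 to 5200 summed CPM in Normoxia to 1284 to 4939 in Hyperoxia, and of 8 tested lymphocyte markers 7 were lower, from 147 to 200.1 summed CPM in Normoxia to 36.5 to 99.2 in Hyperoxia, where Hyperoxia 1 was the highest and the rest ended at 59.7. Of 10 alveolar macrophage markers 1 was higher and 3 lower, with sums of 615 to 861 and 911 to 1195 CPM. No marker of these lists was at 0 in every library. Aplnr, Krt79, Trbc2 and Cd8a, counted as lower, had a normoxic median above the cutoff and a hyperoxic one under it. The part of these shifts in the levels of the stress response genes was not tested.

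Of 9 tested monocyte markers 1 was higher and 3 lower (298 to 383 and 254 to 441 summed CPM), of 5 tested neutrophil markers 0 in either direction by edgeR, 1 lower by DESeq2 and 1 lower at an unadjusted p under 0.05 (106 to 208 and 48.3 to 251 CPM), of 10 alveolar type 1 markers 1 each way (4192 to 4873 and 4540 to 6544 CPM), and of 8 tested fibroblast markers 2 each way (2944 to 4293 and 3317 to 4013 CPM). Without Hyperoxia 1, markers called lower were 8 for alveolar type 2 cells, 7 for endothelium, 8 for lymphocytes, 2 for alveolar macrophages, 4 for monocytes, 1 for neutrophils, 2 for alveolar type 1 cells and 2 for fibroblasts, and markers called higher were 0, 1, 0, 2, 1, 0, 1 and 2 in the same order, where 13.3% and 15.2% of all genes fitted were.

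Among the 10455 genes whose log2 CPM averaged 3 or more, those whose deviations from the group means most resembled the deviations of Atf4 over the 13 libraries were Nap1l4, Epm2aip1, Ruvbl1, Ptpn11 and Nucb2 (Spearman correlation 0.857 to 0.879). For Ddit3 they were Slc25a10, Gipc1, Eif2b2, Fkbp1a and Mpnd (0.907 to 0.918). For Cebpb they were Rpgrip1, Fn3krp, Oat, 9530068E07Rik and Cul2 (0.934 to 0.973), and without Hyperoxia 1 the correlations of these 5 genes were 0.503 to 0.860. The 3 sets had no gene in common. These are descriptions over libraries that differ in depth and may differ in preparation. The nearest genes without Hyperoxia 1 shared 1 of 5 for Atf4 and 0 of 5 for Ddit3 and for Cebpb.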

How the data were processed

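The authors prepared Quant-seq 3′ libraries from 500 ng of lung RNA, pseudoaligned the reads with kallisto through an automated pipeline, and normalised by library size to CPM; the submitters' notes name mm10 and limma 3.54.2. The deposited tables hold raw counts per gene symbol and log10 values, which equal log10 of CPM plus 1 of the same counts. No column was left unmapped, and no pair of libraries of a group agreed within sampling noise.

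Here the raw counts of the 6 Hyperoxia and 7 Normoxia libraries were fitted with edgeR 4.0.16 (R 4.3.3; TMM scaling, filterByExpr with a minimum count of 10, glmQLFit and glmQLFTest, no covariate), with Benjamini-Hochberg adjustment over 12496 genes and a threshold of 0.05. Log2 CPM used a prior count of 2. DESeq2 1.42.0, limma-voom and limma 3.58.1, other scalings and filters, each library left out, library-name sets and a replicate block were alternatives, and the scripts were tested on simulated data. Replicate numbers did not pair the samples. The 10 genes and the other lists were chosen with earlier results of these data known. All 10 genes are named, with up to 4 called genes per direction of each pathway list, at most 2 per marker list, the eIF2 kinases and Ppp1r15b, and the 5 genes most like Atf4, Ddit3 and Cebpb. Genes named for their selection by the filter, and the glucocorticoid-induced genes named as not called, were added after their values were seen. Coordinates are from GENCODE M21 and promoters from RefSeq.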

Additional observations from a re-analysis of the deposited data

Results flagged for a closer look

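In 6 of 44 groups of libraries examined, the lowest or highest library's gap to the nearest other one exceeded Dixon's 95% critical ratio, which chance does in about 1 in 20 groups, and Hyperoxia 1 was that library in 5 of the 6. Its log2 CPM was 0.80 for Asns against 4.17 to 5.11 in the other hyperoxic libraries (ratio 0.782), 0.80 for Cebpb against 5.23 to 7.03 (ratio 0.712), and 5.89 for Nupr1 against 8.51 to 9.78 (ratio 0.673). It was instead the highest hyperoxic library for the summed eIF2 kinase and machinery genes (ratio 0.637) and for the summed endoplasmic reticulum chaperone, ATF6 and IRE1 arm genes (ratio 0.773), although in the latter list 6 of the 20 genes were above the mean of the other hyperoxic libraries, 6 at least 2 log2 units below it, and the median difference was -0.32. The remaining case was Atf5 in Normoxia 5, with 0 reads (ratio 0.572).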

How the results depend on the processing

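Leaving out any single library gave 6 to 7 of the 10 genes higher and 0 lower, where 10.1% to 15.2% of all genes fitted were called higher. The count was 3 in the B to M run of library names alone, an alternative added after the data were seen (5.34% of all genes fitted), and 4 to 7 under the other alternatives (5.75% to 14.1%, or 1.55% with the fold threshold), with 0 lower in each; at 4, a minimum of 10 counts in every library had removed Asns, Trib3 and Cebpb from the test. Cebpb, at -0.20, changed sign without Hyperoxia 1 (-0.49 to 0.072 over the fits that left out a library) and within the libraries named O to S (0.55), and Eif2ak2, at -0.18, within B to M (0.31), against -0.85 within O to S; the cause was not tested. With limma on the deposited log CPM the median over all genes tested shifted by -0.13 and 38.8% of all calls were higher, against 52.3% in the main test. Same-numbered libraries of the groups deviated with correlations of -0.325 to 0.272, so the numbers did not pair them. With the number as a replicate block, 4 of the genes were higher, where 5.75% of all genes tested were against 11.8% without it, Asns (1.61, edgeR adjusted p = 0.162) and Ppp1r15a (1.22, adjusted p = 0.06) no longer being called. Low read counts limit what can be said of Atf5, Chac1 and Ddit4.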
